A study of Homo sapiens with 2 samples.

Results

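HSD17B10 and 7 related genes were examined in RNA from MDA-MB-231 cells treated with KMO siRNA and from cells treated with control siRNA. The 8 genes are HSD17B10, its partners TRMT10C and PRORP in mitochondrial RNase P, and 5 further members of the 17-beta-hydroxysteroid dehydrogenase family (HSD17B4, HSD17B8, HSD17B11, HSD17B12 and HSD17B14), out of 19775 genes named on the array. Members were all probe sets that the platform annotation assigns to exactly 1 of these genes, which gave 15 probe sets. The group was selected on the siKMO minus siCon difference of HSD17B10 between these same arrays, and the other genes were added as its partners and relatives, so the values of HSD17B10 are a description and no test stands behind them.

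MDA-MB-231 is a human cell line of triple-negative breast cancer, and KMO, kynurenine 3-monooxygenase, is an enzyme of the mitochondrial outer membrane that acts on the tryptophan breakdown product kynurenine. The siKMO culture received siRNA against KMO and the siCon culture received a control siRNA, in both cases with the DharmaFECT reagent and for 48 h. The array names hold shK421 and shLUC, strings more common for short hairpin RNAs, and the labels do not settle which was used. Each condition was measured on 1 Affymetrix U133 Plus 2.0 array, so there is no replicate, no p-value, and every difference below describes this pair of cultures.

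Levels are deposited RMA values on the log2 scale, in which a difference of 1 is 2-fold, and differences are siKMO minus siCon. A probe set with no target RNA still has a background level, so a gene was called measured only where its probe set with the highest mean reached a mean of 6, which held for 8997 genes. Levels of different probe sets are not comparable with each other, and only differences are set side by side. Among measured genes with 2 or more probe sets at that level (3777 genes), the differences given by the probe sets of 1 gene spanned a median of 0.15, with a 95th percentile of 0.62. KMO itself, with 3 probe sets, had levels of 2.92, 2.51 and 2.35 in siKMO, against 2.95, 2.37 and 2.11 in siCon, all under 6, so the knockdown could not be checked from its own RNA. Of the traits of the line, VIM (12.96 in siKMO, 12.90 in siCon), CD44 and EGFR were measured, ESR1 and PGR were under 6 with every probe set, and ERBB2 was measured at 7.37 in siKMO and 7.44 in siCon. CDH1, the epithelial cadherin that the line is known to lack, stood at 8.62 in siKMO and 10.54 in siCon, a difference of -1.92. Its levels go against the usual description of the line, and their bearing on the results was not tested.

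HSD17B10 belongs to the short-chain dehydrogenases, enzymes that move hydrogen between NAD and alcohols or ketones. In mitochondria it oxidises an intermediate of isoleucine breakdown, and, apart from that activity, it forms a platform with the methyltransferase TRMT10C. This pair methylates mitochondrial tRNAs, and with the nuclease PRORP it cuts the 5′ ends of tRNAs out of the long transcripts of mitochondrial DNA, work that the nuclear enzyme does with an RNA subunit. Its relatives reduce or oxidise fatty acyl chains, steroids and other lipids in peroxisomes, the endoplasmic reticulum, mitochondria and lipid droplets.

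HSD17B10 was the member that differed by far the most. Its only probe set stood at 9.44 in siKMO and at 7.40 in siCon, a difference of 2.03 or a 4.10-fold higher level in siKMO. In bulk RNA, more cells with a transcript and more of it per cell cannot be told apart. It was the 1 measured member of 6 that was at least 2-fold higher, against 0.856% of all measured genes, and since the members were assembled around it this count carries no further weight. Its difference ranked as number 4 from the top among 8997 measured genes, after RSAD2, SEMA3A and TFPI2, and before IDO1, EREG and CCNE2. With levels under 6 taken as 6 it ranked as number 3, since SEMA3A, with a siCon level of 4.97, then differed by 1.09. RSAD2, with a siCon level of 5.65, still ranked above HSD17B10, at 2.06. Both HSD17B10 levels lay above the minimum. Among the 2779 measured genes with 1 probe set in all, HSD17B10 had the highest difference.

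Genes of similar signal give the setting of this value, as a description only, since HSD17B10 was chosen for its difference. Of the 2135 measured genes whose mean level lay within 0.5 of that of HSD17B10, the central 95% differed by -0.77 to 0.70, and 18 were at least 2-fold higher, HSD17B10 included. No second probe set of the gene was available to set against it.

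**Figure D1:**
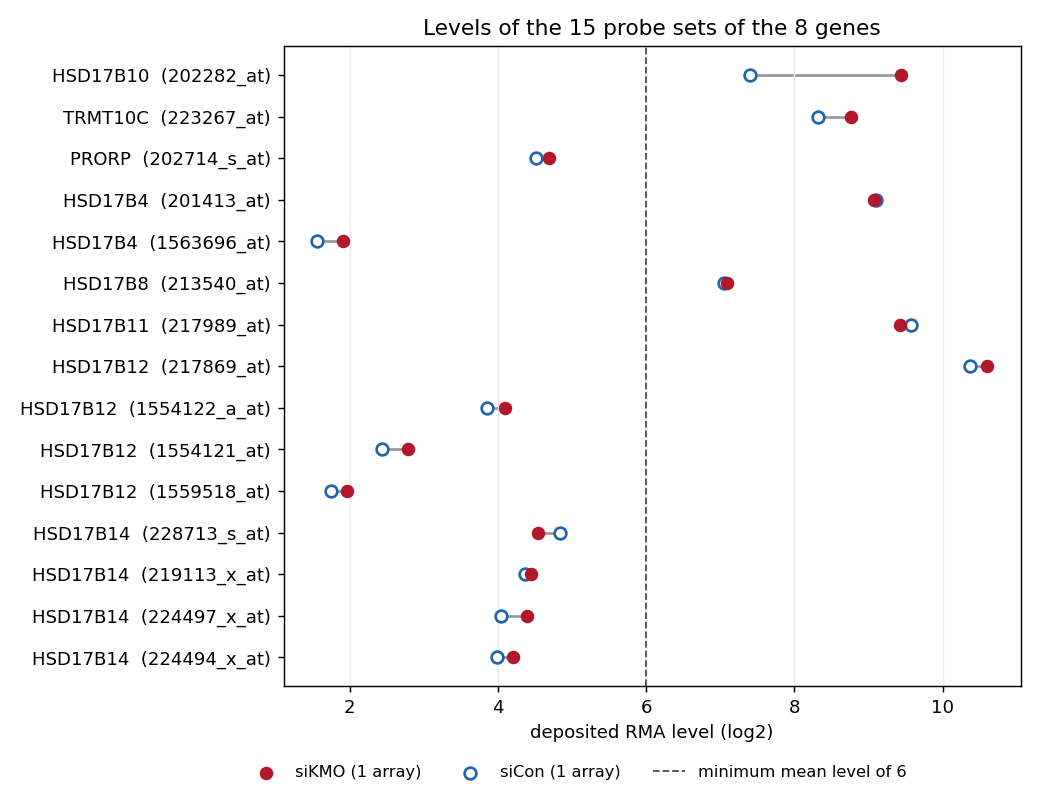
Levels of all 15 probe sets of the 8 genes (horizontal axis, deposited RMA level on the log2 scale), with a filled point for the siKMO array and an open point for the siCon array, 1 array each, and a dashed line at the minimum mean level of 6. HSD17B10 is the 1 probe set with a wide gap (9.44 in siKMO, 7.40 in siCon), and 9 probe sets lie under 6 on both arrays.

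The other subunits of mitochondrial RNase P had smaller differences. TRMT10C, the tRNA methyltransferase that binds HSD17B10, stood at 8.76 in siKMO and 8.32 in siCon, a difference of 0.44. This was higher in siKMO by less than 1.5-fold, and 10.5% of measured genes had a difference at least as high. PRORP, the nuclease subunit (KIAA0391 in older annotations), had 1 probe set of its own at 4.69 in siKMO and 4.51 in siCon. Both levels lay under 6, so its difference of 0.18 was not resolved from background and PRORP was not measured. A further 2 probe sets that the annotation shares between PRORP and the neighbouring proteasome gene PSMA6 lie outside the rule. They stood at 7.51 and 11.49 in siKMO, against 7.39 and 11.44 in siCon, differences of 0.12 and 0.05 that cannot be assigned to either gene. The catalytic subunit gave no usable value, and the measured subunits both were higher in siKMO but by unequal amounts.

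The sequences just before the start sites of HSD17B10 and TRMT10C are shown as those of the measured partners of 1 complex. Each is the 250 bases before a RefSeq transcript start (build GRCh38.p14; for HSD17B10 the more upstream of its 2 annotated starts, from which positions are counted), for HSD17B10 chrX:53434377-53434626 on the minus strand and for TRMT10C chr3:101561618-101561867 on the plus strand, with matches to the searched motifs in capitals.
HSD17B10: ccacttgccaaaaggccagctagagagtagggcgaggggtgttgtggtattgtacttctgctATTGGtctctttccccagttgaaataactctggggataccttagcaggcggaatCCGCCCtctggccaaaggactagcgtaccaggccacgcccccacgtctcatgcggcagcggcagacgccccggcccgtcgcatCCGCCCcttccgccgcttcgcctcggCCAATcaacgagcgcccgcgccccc
TRMT10C: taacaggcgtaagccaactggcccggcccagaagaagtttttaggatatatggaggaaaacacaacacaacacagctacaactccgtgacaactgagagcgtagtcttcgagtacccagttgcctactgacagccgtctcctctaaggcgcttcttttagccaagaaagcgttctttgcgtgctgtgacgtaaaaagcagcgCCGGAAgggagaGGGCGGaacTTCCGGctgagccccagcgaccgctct
The capitals in HSD17B10 mark 2 GC boxes (GGGCGG, here on the opposite strand as CCGCCC), beginning 134 and 51 bases before the start, and 2 CCAAT boxes (CCAAT, the farther one on the opposite strand as ATTGG), beginning 188 and 25 bases before it. Those in TRMT10C mark 1 GC box, beginning 36 bases before the start, flanked by 2 ETS cores (CCGGAA, the nearer one on the opposite strand as TTCCGG), beginning 48 and 27 bases before it, and no matches overlap. GC boxes were present in 42.6% of 35116 RefSeq windows of this length, CCAAT boxes in 32% and ETS cores in 14.5%. Neither window held the letters CACGTG of an E box (6.34% of windows), TTTCCCGC (1.39%) or TTTGGCGC (0.55%) of E2F sites, or the core of an NRF1 site (1.03%). A match describes letters only, and 6 of the 8 members had a window in the RefSeq table. GC and CCAAT boxes were not particular to HSD17B10. The window of HSD17B8 held 1 GC box and 2 CCAAT boxes, that of HSD17B4 1 GC box and that of HSD17B11 1 CCAAT box. The windows of PRORP held neither. Whether these letters bear on the differences was not tested.

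**Figure D2:**
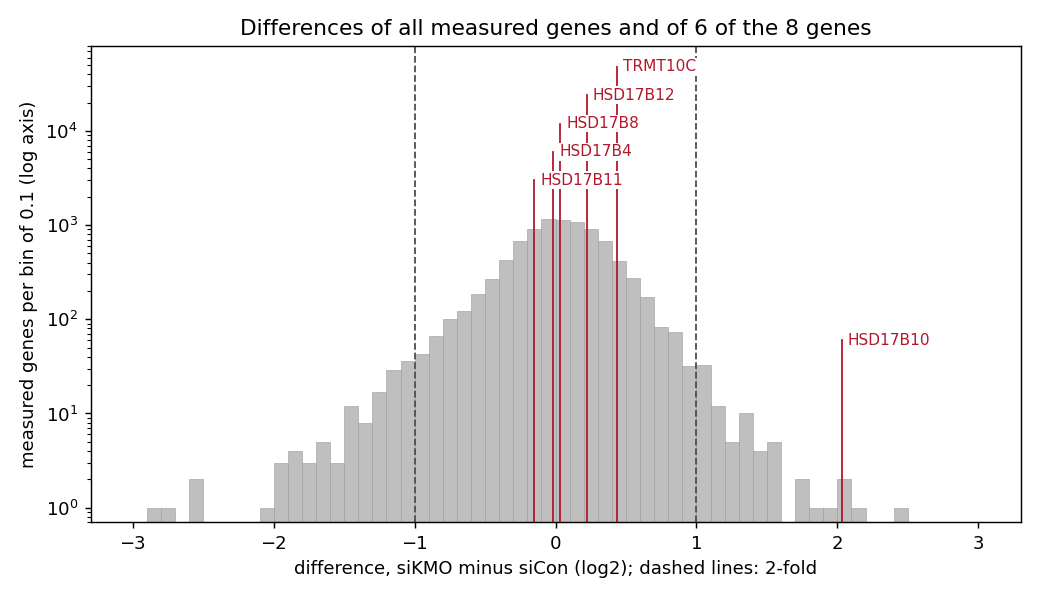
Number of measured genes (vertical log axis) per bin of 0.1 of the difference, siKMO minus siCon on the log2 scale, for 8997 genes, with red lines at 6 of the 8 genes (their height has no meaning) and dashed lines at 2-fold. HSD17B10 lies at 2.03 near the right end, while the other 5 lie between -0.15 and 0.44 in the body of the distribution.

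The HSD17B relatives showed small differences in both directions. HSD17B12, the ketoacyl-CoA reductase of very long chain fatty acid elongation in the endoplasmic reticulum, stood at 10.60 in siKMO and 10.38 in siCon, a difference of 0.22. Its 3 other probe sets lay between 1.97 and 4.10 in siKMO and between 1.74 and 3.85 in siCon, in the range of background. HSD17B11, a dehydrogenase found on lipid droplets, differed by -0.15, with 9.42 in siKMO and 9.57 in siCon. HSD17B4, the bifunctional hydratase and dehydrogenase of peroxisomal beta-oxidation, stood at 9.08 in siKMO and 9.09 in siCon, a difference of -0.02, while its other probe set lay under 6 on both arrays. HSD17B8, which works in mitochondrial fatty acid synthesis as a ketoacyl reductase, stood at 7.09 in siKMO and 7.05 in siCon, a difference of 0.04.

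None of these 4 measured relatives differed by 1.5-fold, a size reached by 5.19% of measured genes upward and 5.41% downward. Their differences ran from -0.15 to 0.22, against a median of 0.04 over all measured genes. HSD17B14, an enzyme that oxidises estradiol in vitro, had 4 probe sets with levels from 4.20 to 4.54 in siKMO and from 3.99 to 4.84 in siCon. All 4 lay under 6, so HSD17B14 was not measured. Their differences ran from -0.31 to 0.35 with no common sign, and all 4 carry a suffix (_x_at or _s_at) of probe sets that can bind several transcripts. In all, 6 of 8 members were measured. Of these, 4 were higher (against 54.8% of all measured genes) and 2 lower (against 44.1%) in siKMO. Only HSD17B10 was higher by 2-fold (against 0.856%).

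RNA that mitochondrial RNase P works on was measured in part. Of 15 mitochondrially encoded genes listed, 7 had a probe set of their own, and their median difference was 0.04. Of these 7, 0 differed by 1.5-fold, against 5.19% of all measured genes upward and 5.41% downward. With so few genes that count says little. The transcript of MT-CO1, a catalytic subunit of cytochrome oxidase, stood at 13.36 in siKMO and 13.49 in siCon, and MT-ND4, of complex I, at 13.23 and 13.09 in siKMO, against 13.34 and 13.23 in siCon with its 2 probe sets. MT-CO2 stood at 13.44 and 13.53 in siKMO, against 13.44 and 13.54 in siCon. These lie close to the highest level on either array (13.56 in siKMO, 13.58 in siCon), where a difference in RNA may no longer show. MT-ND2 and the stronger probe set of MT-ATP6 also lay in that upper range (12.79 and 13.08 in siKMO, 12.69 and 13.03 in siCon).

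MT-ND6, the transcript of the other DNA strand, lay far from that ceiling and stood at 7.30 in siKMO and 7.07 in siCon, a difference of 0.23. MT-CO3 differed by 0.04, and the weaker probe set of MT-ATP6 had equal values on both arrays. These probe sets bind messenger RNA stretches, and neither the tRNAs nor the cut between them was measured.

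Other genes of mitochondrial tRNA maturation were more often higher than lower. Of 21 measured genes of tRNA processing and modification, 16 (against 54.8% of all measured genes) were higher in siKMO and 3 lower (against 44.1%), and the rest were equal on the 2 arrays. The median difference was 0.25, against 0.04 over all measured genes. 1 gene was higher by 1.5-fold (against 5.19% of all measured genes), QTRT1, a subunit of the enzyme that places queuine in tRNA, higher by at least 0.69 since its siCon level of 5.97 was under 6. PDE12, which trims adenosines from mitochondrial RNA, differed by 0.47 (8.91 in siKMO, 8.45 in siCon), and MTRES1, a factor that aids mitochondrial transcription under stress, by -0.53 (7.81 in siKMO, 8.34 in siCon). ELAC2, the nuclease that cuts the 3′ ends of the same tRNAs, stood at 8.46 in siKMO and 8.09 in siCon, a difference of 0.37. TRNT1, which adds the CCA end, differed by 0.45.

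Genes of mitochondrial transcription and RNA stability gave a like picture with a smaller median. Of 28 measured, 20 were higher (against 54.8% of all measured genes) and 7 lower (against 44.1%), with a median difference of 0.17. The 2 that were higher by 1.5-fold are close to the share over all measured genes, 5.19%. TEFM, the elongation factor of the mitochondrial RNA polymerase, stood at 8.65 in siKMO and 7.95 in siCon, a difference of 0.70, although its other probe set, under 6, had -0.29. TFAM, which packages mitochondrial DNA and acts in its transcription, stood at 9.37 in siKMO and 8.78 in siCon, a difference of 0.59. Its 3 probe sets at 6 or above gave 0.47 to 0.70. FASTKD5, which is needed to process the transcripts not flanked by tRNAs, differed by 0.54. The polymerase POLRMT itself had equal values of 7.07 on both arrays.

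The measured transcripts for protein subunits of nuclear RNase P, a different enzyme for the same cut in nuclear tRNAs, were all higher in siKMO. Each of 10 measured genes was higher by some amount (against 54.8% of all measured genes), with a median difference of 0.43. Of them, 3 were higher by at least 1.5-fold (against 5.19%). POP1, the largest protein of the complex, stood at 6.80 in siKMO and 5.68 in siCon, higher by at least 0.80 with the siCon level taken as 6. POP5 differed by 0.89 (8.94 in siKMO, 8.06 in siCon) and POP7 by 0.64 (9.05 in siKMO, 8.41 in siCon). RPP40 and POP4 followed at 0.58 and 0.52, and RPP30, RPP25L, RPP25 and RPP38 at 0.25 to 0.33. RPP14 had the smallest difference, 0.13, and its other probe set above 6 gave -0.07. TRMT10A and TRMT10B, the relatives of TRMT10C outside mitochondria, were under the minimum, as was RPPH1, the RNA subunit.

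**Figure D3:**
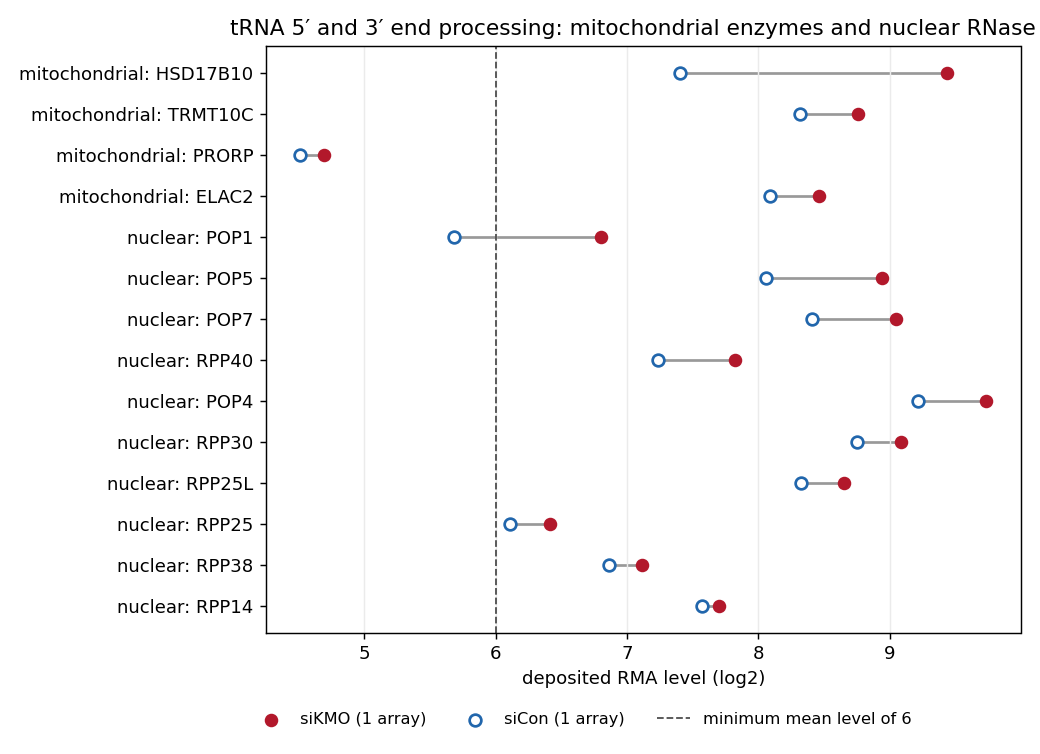
RNA levels (horizontal axis, deposited RMA level on the log2 scale) of the mitochondrial RNase P subunits, of ELAC2, which also acts in the nucleus, and of the 10 measured protein subunit genes of nuclear RNase P, with a filled point for the siKMO array, an open point for the siCon array and a dashed line at 6. Every siKMO point lies to the right of its siCon point, from a gap of 0.13 for RPP14 to 2.03 for HSD17B10, and PRORP lies under 6 on both arrays.

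The breakdown of branched-chain amino acids, the pathway of the HSD17B10 dehydrogenase activity, had no such direction. Of 21 measured genes, 9 were higher (against 54.8% of all measured genes) and 12 lower (against 44.1%) in siKMO, with a median difference of -0.06. The enzymes next to HSD17B10 on the isoleucine route had differences of -0.33 for ACADSB (6.26 in siKMO, 6.59 in siCon), -0.15 for the hydratase ECHS1 (10.06 in siKMO, 10.21 in siCon) and 0.18 for the thiolase ACAT1 (10.57 in siKMO, 10.38 in siCon). The largest differences were those of PPM1K, the phosphatase that activates the branched-chain ketoacid dehydrogenase, at -0.61 (7.07 in siKMO, 7.69 in siCon), of ALDH6A1, of valine breakdown, at -0.43, and of AUH, of leucine breakdown, at -0.42. PPM1K was the 1 gene of the list that was lower by 1.5-fold (against 5.41% of all measured genes). Its 2 probe sets at 6 or above gave -0.61 and -0.50. All 5 of its probe sets were lower in siKMO (-0.66 to -0.22). Both ends of that range came from probe sets with a mean under 6, where differences are not resolved from background.

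Mitochondrial beta-oxidation genes were more often lower. Of 17 measured, 11 were lower (against 44.1% of all measured genes) and 6 higher (against 54.8%), with a median of -0.15, and 2 were lower by 1.5-fold (against 5.41%). ETFDH, which passes electrons from fatty acid oxidation to ubiquinone, stood at 5.72 in siKMO and 6.69 in siCon, lower by at least 0.69. CPT2, of carnitine-dependent import, stood at 6.76 in siKMO and 7.47 in siCon, a difference of -0.71, and -0.99 with its other probe set. CPT1A, which catalyses the first step of that import, differed by -0.39. HADH, a mitochondrial hydroxyacyl-CoA dehydrogenase, differed by 0.34 in the other direction.

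The pathways of the HSD17B relatives mostly varied little. Among 13 measured genes of peroxisomal beta-oxidation, where HSD17B4 acts, 6 were higher (against 54.8% of all measured genes) and 7 lower (against 44.1%) with a median of -0.04, or 0.12 when _x_at and _s_at probe sets were left out. CRAT, a carnitine acetyltransferase, differed by -0.69 (7.49 in siKMO, 8.18 in siCon), the oxidase ACOX2 by 0.44 and the transporter ABCD4 by -0.30. Of 6 measured elongation genes beside HSD17B12, 4 were higher (against 54.8% of all measured genes) and 2 lower (against 44.1%) with a median of 0.09. The elongase ELOVL7 had the largest difference, 0.49 (8.34 in siKMO, 7.86 in siCon), with ELOVL5 at 0.14 and ELOVL6 at -0.14.

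In mitochondrial fatty acid synthesis, CBR4, which forms a complex with HSD17B8, stood at 6.70 in siKMO and 7.31 in siCon, a difference of -0.61. Its other probe set above 6 gave 0, so the direction of CBR4 was not settled. LIPT1 and NDUFAB1, of lipoylation and acyl carriage, differed by 0.27 and 0.20, and the 5 measured genes of the list had a median of 0.05.

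Lipid droplet genes, among which HSD17B11 works, had a median difference of -0.17, and 7 of the 8 measured were lower in siKMO, against 44.1% of all measured genes. DGAT2, which makes triglyceride, stood at 6.96 in siKMO and 7.97 in siCon, a difference of -1.01, and its other probe set gave -1.11, so it was the 1 gene in the lists lower by 2-fold (against 1.39% of all measured genes). MGLL, a monoglyceride lipase, differed by -0.73, and its other probe set gave -0.68. PNPLA2, the first lipase of stored fat, differed by -0.29, and the coat protein PLIN2 by -0.19.

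The wider dehydrogenase and steroid genes set a background for the family. Of 23 measured short-chain dehydrogenases outside the HSD17B family, 14 were higher (against 54.8% of all measured genes) and 9 lower (against 44.1%) with a median of 0.03. The 1 that was higher by 1.5-fold (against 5.19%) was NSDHL of cholesterol synthesis, at 0.67 (7.74 in siKMO, 7.07 in siCon) and 0.70 with its other probe set. SPR, of biopterin synthesis, differed by 0.50 and DHRS11 by 0.45, and the highest of the 23 was NSDHL. Of the other HSD17B enzymes, HSD17B1, which makes estradiol, differed by 0.17 (6.73 in siKMO, 6.56 in siCon) with its stronger probe set and HSD17B7, of cholesterol synthesis, by 0.09, while HSD17B2, HSD17B3 and HSD17B6 were under the minimum.

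The aldo-keto reductases AKR1C1, AKR1C2 and AKR1C3 differed by -0.59, -0.44 and -0.50, but their sequences are so alike that single values are uncertain. The reductase SRD5A1 differed by 0.60, with 0.48 to 0.60 over its 3 probe sets, and the sulfatase STS by 0.49. ESR1, ESR2, PGR and GPER1, the receptors for estrogens and progesterone, were under the minimum. The glucocorticoid receptor NR3C1 differed by -0.50 (10.17 in siKMO, 10.67 in siCon; -0.57 to -0.39 over 5 probe sets) and the mineralocorticoid receptor NR3C2 by 0.53 (7.75 in siKMO, 7.22 in siCon).

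**Figure D4:**
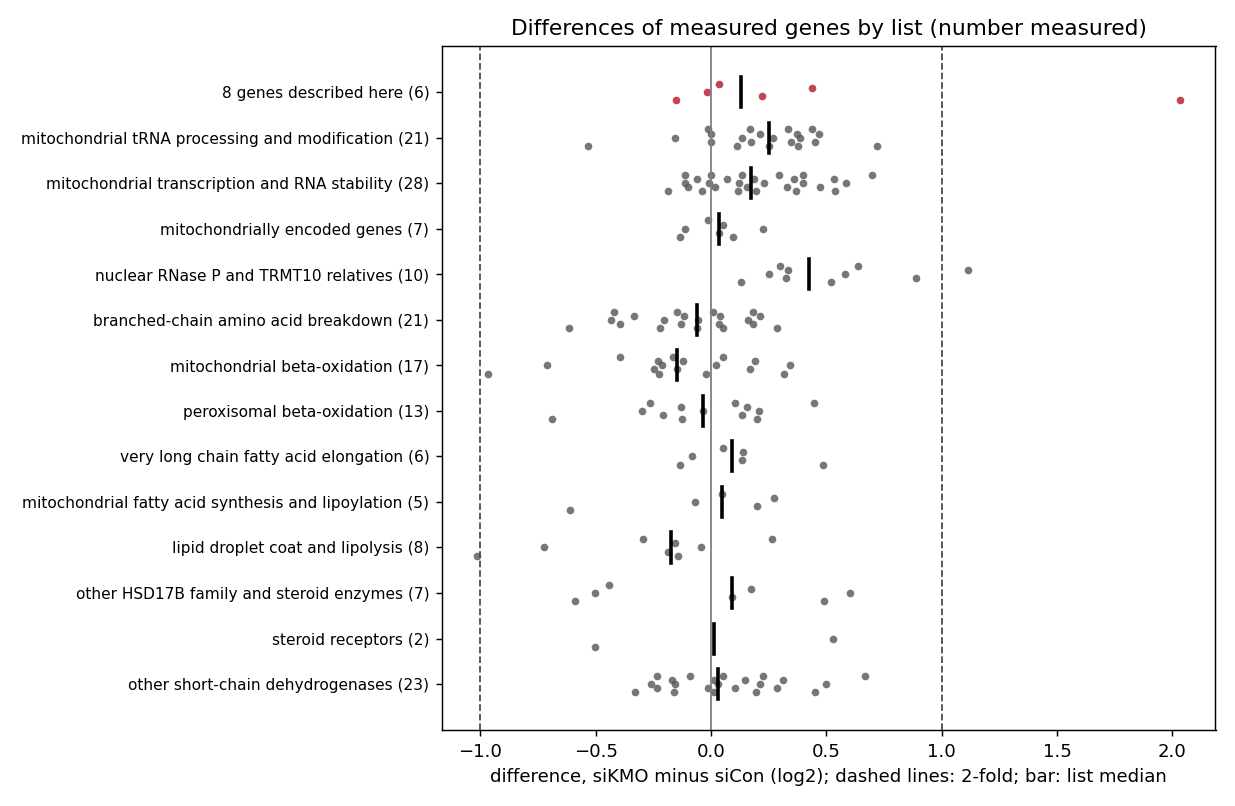
Differences (horizontal axis, siKMO minus siCon on the log2 scale) of the measured genes of each list, 1 point per gene with vertical spread for legibility only, black bars at list medians and dashed lines at 2-fold. HSD17B10, at 2.03, stands to the right of all other points, the next being POP1 (1.12 as deposited), and the nuclear RNase P list has the highest median, 0.43.

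The measured genes beside HSD17B10 on chromosome X had smaller differences than HSD17B10. Of the 5 protein-coding neighbours on each side in the RefSeq table, 9 had a probe set and 7 were measured. In siKMO 6 of the 7 were higher (against 54.8% of all measured genes) and 1 lower (against 44.1%). Their median difference was 0.25, against 0.04 over all measured genes. None passed 2-fold with its strongest probe set, but few of all measured genes did (0.856% higher, 1.39% lower). SMC1A, a cohesin subunit, stood at 10.54 in siKMO and 9.93 in siCon, a difference of 0.60, which was the highest of the 7. A weaker SMC1A probe set, with a mean under 6, had 6.19 in siKMO and 5.18 in siCon, a difference of 1.01 as deposited. HUWE1, a ubiquitin ligase and the next gene on the other side, stood at 10.80 in siKMO and 10.88 in siCon, a difference of -0.08, and 0.15 with its other probe set above 6. RIBC1, the immediate neighbour, lay under 6 with both of its probe sets (4.48 in siKMO and 4.35 in siCon for the stronger one). FAM120C and TSR2 differed by 0.48 and 0.35, PHF8 by 0.25, WNK3 by 0.10 and KDM5C by 0.09.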

How the data were processed

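RNA of 2 cultures was measured, 1 array per condition, grouped by the sample titles. The authors deposited RMA levels on the log2 scale for 54675 probe sets (per the labels). Affymetrix Expression Console is named by the submitters' processing notes; its version, and which arrays entered the normalization, are not stated there. RMA equalises the distributions of arrays, so a shift of all transcripts together cannot be seen (medians of 4.43 in siKMO and 4.44 in siCon), and arrays carry no depth: their number limits the precision.

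Probe sets with exactly 1 gene in the platform annotation were named through RefSeq gene identifiers. Each gene was represented by the probe set whose mean over both arrays was highest, and genes with a mean of at least 6 counted as measured. Where 1 array was under 6, a difference called "at least" takes that level as 6, while counts and medians use the deposited values. Shares over all measured genes are printed beside the main counts. There was no test. The calculation was checked on simulated data with set differences and a noise smaller than the spread in this pair. That is a check of the code only, and it does not measure how reliable the 2-fold calls are.

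The members and lists were chosen with earlier results of these data known. Named genes are the members, KMO, up to 3 measured genes per list with the largest absolute difference, the neighbours of HSD17B10, and the genes next to it in the order of differences. A planned search for genes with similar levels is not reported, since levels of different probe sets are not comparable. Mitochondrially encoded genes, steroid receptors and other HSD17B genes could all be named. ELAC2, TRNT1, POLRMT, the remaining nuclear RNase P proteins and TRMT10 relatives, ACADSB, ECHS1, ACAT1, HADH, PLIN2, STS, AKR1C2 and the markers of the line were added for their roles after their values were seen. 2 genes, TP53I3 and RETSAT, were removed from the dehydrogenase list after values were seen, because they are not short-chain dehydrogenases. Protein sequences were not used here. Python 3.11.15 with pandas 2.3.3 was used.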

Additional observations from a re-analysis of the deposited data

How the results depend on the processing

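No paired analysis was possible because each condition has 1 array, and for the same reason no replicate could be left out. HSD17B10 and TRMT10C have 1 probe set each with both levels above 6, so only the scaling alternatives could move them: they differed by 2.01 and 0.41 after renewed quantile normalization and by 2.04 and 0.45 after centring on the median. With levels under 6 taken as 6, PRORP and HSD17B14 differed by 0. With the mean of all probe sets, HSD17B4 differed by 0.17, HSD17B14 by 0.084 and the other short-chain dehydrogenases had a median of 0.18. The peroxisomal median was 0.12 when _x_at and _s_at probe sets were left out, so its sign was not settled, and the median of the other HSD17B and steroid enzymes was -0.070 at a minimum of 5 and 0.49 at a minimum of 7. The nuclear RNase P median ran from 0.33 to 0.52, that of mitochondrial tRNA processing from 0.17 to 0.27, and that of mitochondrial beta-oxidation from -0.19 to -0.12. Over all measured genes the 2-fold counts, 77 higher and 125 lower, were 51 and 77 at a minimum of 7, 128 and 214 with no minimum, and 46 and 67 when all probe sets of a gene were averaged, while 79 genes were lower when _x_at and _s_at probe sets were left out. At 1.5-fold the counts were 467 higher and 487 lower. The cause of these shifts was not tested. Signal limits PRORP, HSD17B14 and KMO, which lay under 6 with every probe set of their own.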
